A study of Drosophila melanogaster with 8 samples.

Results

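The Snail family cluster of Drosophila melanogaster lies on chromosome arm 2L and holds escargot (esg, CG3758), worniu (wor, CG4158) and snail (sna, CG3956). The stretch described here was fixed by position, as the deposited rows on 2L of the dm3 assembly with starts from 15310000 to 15500000, which is 190 kb. Its H3K27me3 was read in 184 windows of 1 kb out of 126378 in the whole series, and the other 21574 windows of 2L stand beside it as the rest of the arm. Adult testes of males homozygous for can or for comr, 3 days old and kept at 23 °C, were the source, with 400 testes as the starting material for the replicates. H3K27me3 was immunoprecipitated from can testes and from comr testes, with 2 replicates and 2 inputs for each genotype. The labels name the mutated gene and no allele. can encodes a testis-specific relative of a TBP-associated factor (a tTAF), comr encodes a subunit of the testis meiotic arrest complex, and germ cells of either mutant stop as spermatocytes. The testes therefore lack spermatids in both, and no wild-type testes were analysed here.

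Snail family proteins are zinc finger transcription factors that mostly act as repressors and bind E-box sequences. esg keeps stem and progenitor cells from differentiating, and in the testis it acts in the stem cell niche, where it is needed to maintain the somatic hub and cyst stem cells. sna drives mesoderm formation in the embryo by repressing neural ectoderm genes, and acts together with wor and esg in neuroblasts, where wor is best known. Genes for developmental regulators such as these are typical targets of Polycomb complexes, which lay down H3K27me3 over broad stretches in cells where the genes are silent. In a testis arrested at the spermatocyte stage, spermatocytes make up a large share of the tissue, whereas the niche cells that use esg are few.

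In the Release 6 gene table, the order along 2L is esg, wor and sna, with no other Snail family member between them. Between esg and wor this table lists 7 genes, of which 2 are protein-coding (CG15258 and CG44869) and 5 are long non-coding RNAs. Between wor and sna it lists 5, of which CG4161 is protein-coding and 4 are long non-coding RNAs. The neighbour of esg away from wor is nht (no hitter), which encodes another tTAF. The neighbour of sna on its far side is Tim17b2, a gene of the mitochondrial import machinery. That table follows another assembly than the deposited profiles, so gene borders could not be placed on dm3, and the values below belong to positions in the cluster and not to single genes.

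Each genotype was deposited as 1 profile that stands for its replicates and inputs together. A value is H3K27me3 over input in 1 kb bins after a step abbreviated QN, on a scale with values on both sides of 0 whose base no source used here names. Differences are therefore differences of scores, not folds. Either profile has a median of 0 across its rows, and their sorted values were identical, so only the placing of signal along the genome can be compared, not its total. Errors are standard errors (SE) over windows or SDs over bins or tiles within 1 profile, and treat neighbouring windows as independent. With 1 profile per genotype no difference could be set against the spread between replicates, no test was run, and the read depth behind a score is unknown.

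H3K27me3 over the cluster stood above the rest of 2L in both mutants, and further above it in comr. The mean score was 0.24 ± 0.04 in can (SE, 184 windows), against -0.01 on the rest of the arm in can. In comr it was 0.44 ± 0.03 (SE, 184 windows), against -0.01 on the rest of the arm in comr. The excess over the rest was 0.25 ± 0.04 in can and 0.45 ± 0.03 in comr. In a bulk tissue, a mark carried by more cells and a mark at a higher level per cell cannot be told apart.

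The scores spanned a wide range from window to window. In can they ran from -1.16 through a median of 0.23 to 1.76 in the cluster, and from -2.65 through -0.01 to 3.36 on the rest of 2L. In comr they ran from -0.82 through a median of 0.48 to 1.81 in the cluster, and from -4.65 through 0 to 2.93 on the rest. The range of the cluster lay inside that of the rest in both mutants, which the far larger number of windows on the rest makes likely. Of the windows of the rest, 31.2% in can and 17.3% in comr lay above the cluster's own median. Much of the excess came from the low end. The 10th percentile of windows was higher in the cluster than on the rest by 0.31 in can and 0.57 in comr, and the 90th percentile by 0.17 in can and 0.30 in comr.

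**Figure D1:**
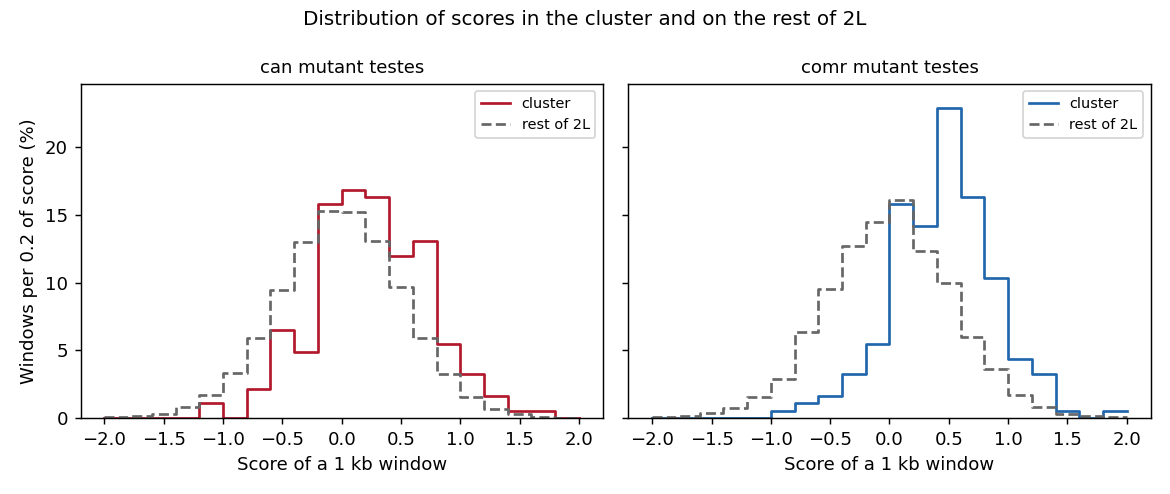
Scores of 1 kb windows, in steps of 0.2 (x axis), as a percentage of the windows of the cluster (solid line) or of the rest of 2L (dashed line), for can on the left and comr on the right; scores beyond 2 in either direction are not drawn. The cluster is shifted upward in both, with medians of 0.23 in can and 0.48 in comr, and in comr few of its windows fall below 0.

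A broad rise rather than tall peaks described the cluster best in comr. In comr 161 of its 184 windows scored above 0 (87.5%), against 49.2% on the rest of the arm, and in can 128 did (69.6%), against 48.8% on the rest. Windows above 0 in both profiles numbered 112 (60.9%, 95% Wilson interval 53.7 to 67.6), beside 29.2% of the rest of 2L. A larger joint share follows from the larger share in each profile, so it does not measure agreement between the mutants. The interval covers counting error only.

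To see how usual such a stretch is, 2L was divided into consecutive tiles of 190 kb laid out from the cluster, 118 of them besides the cluster with at least 95 windows each. None of the 118 had as large a share of windows above 0 in comr, the highest standing at 84.2%, but with the rows that start at each kb 1 tile was higher, at 85.3% against 84.2% in the cluster. In can 5 tiles had a larger share. The SD of windows in comr, 0.42 in the cluster, was below that of each other tile, which ran from 0.43 to 0.70. With rows starting at each kb 2 tiles had a smaller SD, and with all overlapping rows 1 did. In can the cluster's SD was 0.48, within the range of 0.41 to 0.63 over the other tiles. By contrast, the single highest window was not exceptional, since 22 tiles held a higher one in can and 17 in comr.

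High windows were also more frequent in the cluster than on the rest of the arm. A window was called high at or above the top 10% threshold of the 6 main sequences (X, 2L, 2R, 3L, 3R and 4), which was 0.72 in can and 0.71 in comr. In can 29 of 184 windows were high (15.8%, 95% Wilson interval 11.2 to 21.7), against 8.05% of the rest of 2L. In comr 43 were (23.4%, 95% Wilson interval 17.8 to 30.0), against 8.83% of the rest. Windows high in both numbered 13 (7.07%, 95% Wilson interval 4.18 to 11.7), against 2.01%. Of the 59 windows high in either mutant, those 13 made up 22.0%, against 13.5% on the rest of the arm. Such a share rises with the number of high windows in each profile, so it does not show closer agreement in the cluster. Across 1 kb windows, Pearson's r between the mutants was 0.21 in the cluster and 0.32 on the rest of 2L. The 13 windows high in both were spread over the whole length, from the window at 15316050 to 15317049 to the window at 15468050 to 15469049.

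**Figure D2:**
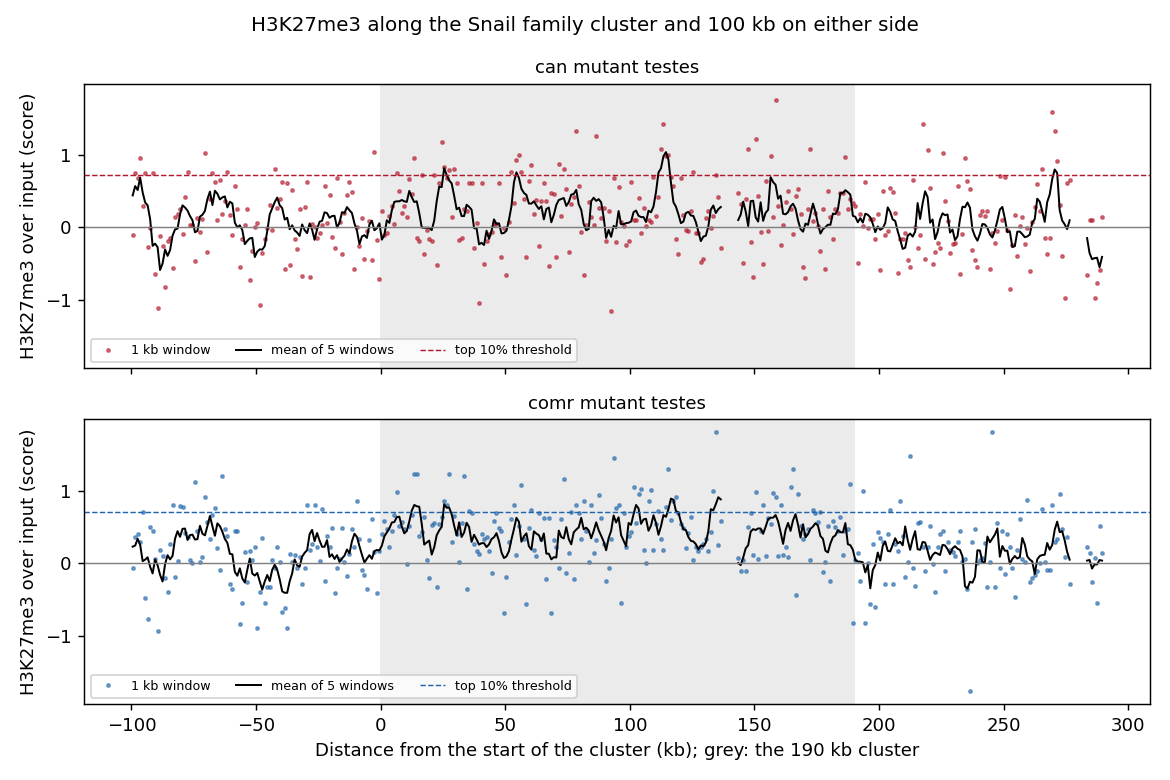
Score of each 1 kb window (points) and the mean of 5 neighbouring windows (black line) against distance in kb from the start of the cluster, with can above and comr below; the grey band is the 190 kb cluster, the dashed line the top 10% threshold, and the break in the line is the stretch with no windows. In comr the line stays above 0 over nearly all of the grey band and drops at both of its ends, while in can it returns to 0 several times.

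The score dropped on both sides of the stretch in both mutants. Over the first 50 kb the mean was 0.21 ± 0.06 for can and 0.45 ± 0.06 for comr, against 0.03 ± 0.06 in can and 0.04 ± 0.06 in comr over the 50 kb before it (SE, 50 windows each). At the other end, the mean of the last 50 kb was 0.24 ± 0.07 for can and 0.41 ± 0.06 for comr (SE, 47 windows), against 0.05 ± 0.07 in can and 0.12 ± 0.07 in comr over the 50 kb after it (SE, 50 windows). The flanks of 190 kb stood below the cluster, at 0.04 ± 0.03 in can and 0.13 ± 0.03 in comr before it (SE, 190 windows) and at 0.01 ± 0.05 in can and 0.09 ± 0.04 in comr after it (SE, 148 windows). In comr both flanks were still above the mean of the rest of the arm by more than 2 of these SEs. At 10 kb the surroundings were less even, since the bins between 15230050 and 15250049 reached 0.19 and 0.37 in can and 0.42 in both bins in comr. These bins lie 60 to 80 kb before the cluster.

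Within the cluster the level varied along 19 bins of 10 kb. In can the bins ran from -0.04 through a median of 0.21 to 0.58, and 18 of 19 were above 0. In comr they ran from 0.17 through a median of 0.41 to 0.70, and all 19 were above 0. On the rest of 2L, 46.9% of 2190 bins were above 0 in can and 47.4% in comr.

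The 3 highest bins by the mean of both profiles lay far apart, near the start, past the middle and towards the end. The highest, from 15420050 to 15430049, had means of 0.58 ± 0.18 in can and 0.70 ± 0.10 in comr (SE, 10 windows). The bin from 15330050 to 15340049 stood at 0.51 ± 0.17 in can and 0.58 ± 0.13 in comr (SE, 10 windows). The bin from 15460050 to 15470049 reached 0.49 ± 0.22 in can and 0.56 ± 0.12 in comr (SE, 10 windows). All 3 stood above the cluster's mean in both mutants, and in each the difference between mutants was smaller than its SE. Both traits are partly built in, since the ranking by the mean of both profiles favours bins raised in both. The bin from 15440050 to 15450049, with 0.65 in comr but 0.19 in can, was not among the 3.

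The 3 lowest bins were also spread along the cluster. From 15350050 to 15360049 the score was 0.01 ± 0.12 in can and 0.27 ± 0.13 in comr (SE, 10 windows). From 15450050 to 15460049 it was 0.13 ± 0.23 in can and 0.17 ± 0.12 in comr, over the 7 windows with a value. From 15400050 to 15410049 it was -0.04 ± 0.16 in can and 0.38 ± 0.19 in comr (SE, 10 windows). A run of 6 windows from 15447050 to 15453049 had no deposited value in either profile.

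Domains, that is high windows joined over gaps of at most 3 kb into stretches of at least 5 kb, filled more of the cluster in comr. In can 2 domains covered 18 of its 190 kb (9.47%). Over the rest of 2L 169 domains in can covered 1322 kb, or 6.13 kb for each 100 windows. In comr 4 domains covered 59 kb of the cluster (31.1%), while over the rest 192 domains covered 1711 kb, or 7.93 kb for each 100 windows. The cluster's percentages are of its full length, with the stretch that has no windows included. The scores below describe domains that were called on those same scores. From 15331050 to 15340049 a can domain had a mean of 0.58 in can, and comr reached 0.58 there too although comr had no domain call there. A second can domain, from 15362050 to 15371049, had means of 0.59 in can and 0.46 in comr, and a comr domain from 15363050 to 15371049 fell inside it. The remaining 3 domains were called in comr alone. From 15383050 to 15398049 the score was 0.34 in can and 0.47 in comr, from 15411050 to 15429049 it was 0.44 in can and 0.67 in comr, and from 15460050 to 15478049 it was 0.37 in can and 0.54 in comr. All 6 calls were thus raised in the other mutant too, above the mean of the rest of the arm. Most stretches of the cluster would pass, since 18 of its 19 bins of 10 kb in can and all 19 in comr were above 0. The matching share for domains on the rest of 2L was not computed.

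The tallest single windows lay at different positions in can and in comr. In can the highest was the window from 15468050 to 15469049, with 1.76 in can and 0.91 in comr. In comr it was the window from 15444050 to 15445049, with 0.72 in can and 1.81 in comr. Next in can was the window from 15423050, with 1.43 in can and 0.19 in comr. The window from 15388050 had 1.33 in can and 0.81 in comr, that from 15396050 had 1.26 in can and 0.32 in comr, and that from 15460050 had 1.23 in can and 0.99 in comr. Tall windows of can were thus high in comr in some places and at 0.32 or less in others. Next in comr was the window from 15403050, with 0.68 in can and 1.46 in comr. The window from 15425050 had 1 in can and 1.31 in comr, that from 15475050 had -0.09 in can and 1.30 in comr, and that from 15323050 had 0.96 in can and 1.23 in comr. The windows from 15324050 and from 15337050 tied with it at 1.23 in comr, with -0.14 and 0.79 in can. Tall windows of comr were likewise high in can at some positions and below 0 at others. No window was among the 5 highest of both. Lists this short, out of 184 windows, need not share a member even when the profiles are related, so this shows no difference between the mutants. The matching overlap in other tiles of 2L was not computed.

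Scores of can were lower than those of comr over the cluster, with means of 0.24 in can and 0.44 in comr and a difference (can minus comr) of -0.20 ± 0.04 (SE, 184 windows). On the rest of 2L the difference was -0.0047 ± 0.0042 (SE, 21574 windows). Of the 184 windows, 116 were lower in can, 66 were higher in can and 2 were equal. Differences of at least 0.5 with can lower were found in 58 windows (31.5%), beside 20.5% of the rest of the arm. Differences of at least 0.5 with can higher were found in 24 windows (13.0%), beside 19.9% of the rest.

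The gap between the mutants was not even along the cluster. In 15 of 19 bins the mean was lower in can, with a difference of -0.20 ± 0.17 over all bins (SD, 19 bins), and on the rest of 2L 50.2% of bins were lower in can. In 4 of the 19 bins (21.1%) can was lower by more than 2 SEs of the difference, beside 6.94% of 2190 bins on the rest of 2L. It was -0.30 ± 0.08 in the first bin, from 15310050 to 15320049, where all 10 windows were lower in can and the means were 0.23 in can and 0.54 in comr. It was -0.42 ± 0.20 and -0.40 ± 0.18 in the adjacent bins from 15400050 to 15420049, and -0.46 ± 0.19 in the bin from 15440050 to 15450049 (SE, 10 windows in each adjacent bin and 7 in the last), which are also the 3 largest differences. The bin from 15440050 held means of 0.19 in can and 0.65 in comr. Conversely, no bin was higher in can by more than its SE. The share of such bins on the rest of 2L was not computed at that cut. At more than 2 SEs, 0 of 19 bins were higher in can, beside 5.57% of 2190 bins on the rest of 2L. The largest differences with can higher were 0.03 ± 0.13, 0.02 ± 0.21 and 0.03 ± 0.19, in 3 adjacent bins from 15360050 to 15390049. The means there were 0.39, 0.29 and 0.43 in can and 0.35, 0.27 and 0.40 in comr.

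**Figure D3:**
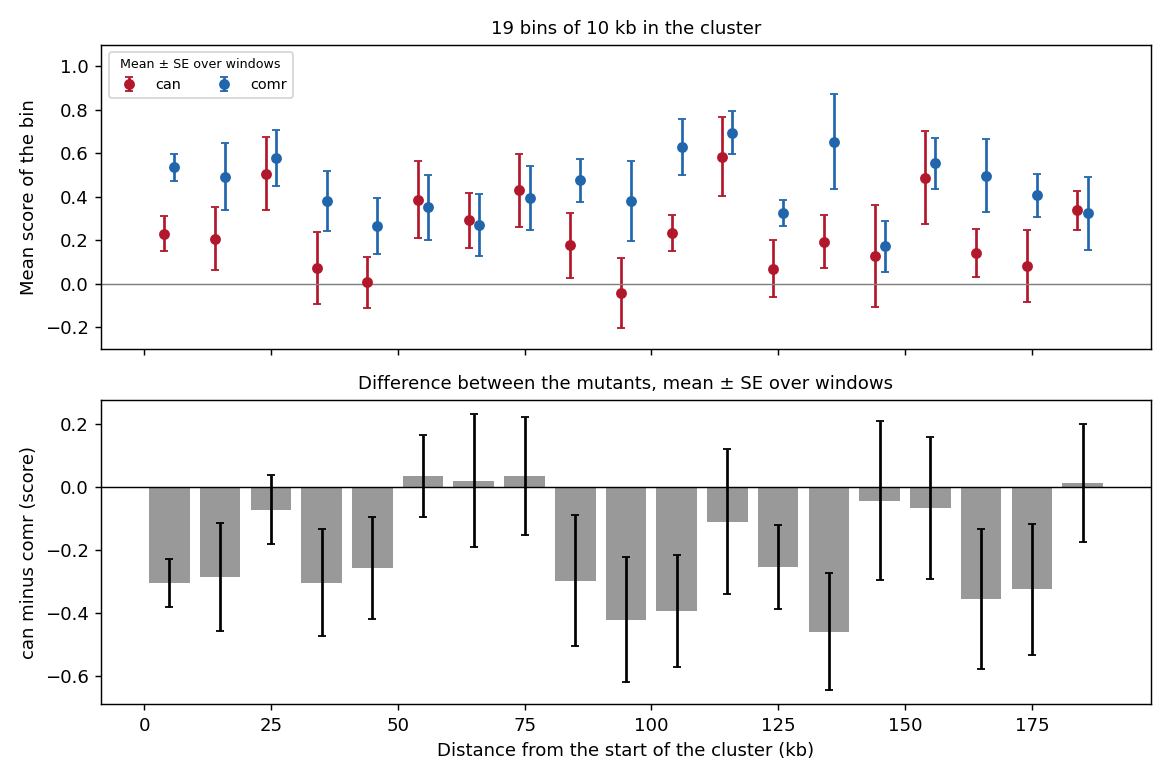
Mean score of each of the 19 bins of 10 kb in can and comr (upper panel) and the difference can minus comr (lower panel, bars) against distance in kb from the start of the cluster; error bars are SEs over the windows of a bin. Of the 19 bins 15 are lower in can, and the 3 adjacent bins at 50 to 80 kb have nearly equal scores.

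Set against the 118 other tiles of 2L, the cluster ranked high in both mutants. There were 6 tiles with a higher mean in can and 2 with a higher one in comr. Among the other tiles the mean ran from -0.42 through a median of -0.02 to 0.37 in can, and from -0.60 through a median of -0.01 to 0.49 in comr. Tile means varied with an SD of 0.14 for can and 0.18 for comr, a wider spread in comr, so the cluster lay 1.78 of these SDs above the tiles' mean in can and 2.47 in comr. The difference of -0.20 was the second lowest, with 1 tile lower and a mean of -0.0044 ± 0.083 over the other tiles (SD, 118 tiles). All 10 of the highest other tiles, ranked by the mean of both profiles, were likewise lower in can, by differences from -0.32 to -0.00072. Most of the tiles lowest by that mean were instead higher in can, so the direction differed between the ends of the ranking. Whether the wider spread of comr accounts for this was not tested. Over all 118 tiles, 65 were lower in can and 53 were higher.

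**Figure D4:**
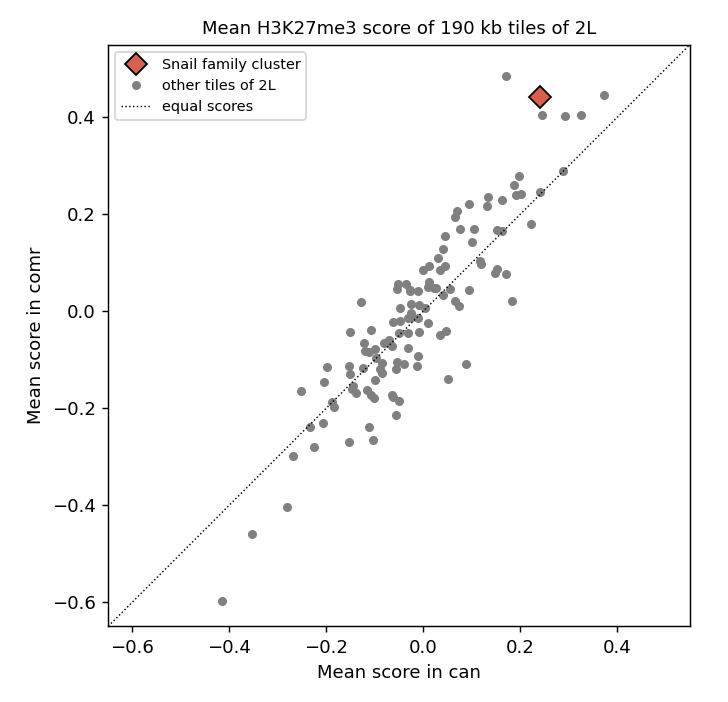
Mean score in can (x axis) and in comr (y axis) of consecutive 190 kb tiles of 2L (grey points) and of the Snail family cluster (diamond), with a dotted line where the mutants have equal scores. The cluster lies at 0.24 in can and 0.44 in comr, in the upper right corner and above the line.

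The tiles most like the cluster, by the distance between their pairs of means in can and comr, lay elsewhere on the arm. The nearest, from 3530050 to 3720049, had means of 0.25 for can and 0.41 for comr. Next came the tile from 4480050 to 4670049, at 0.29 for can and 0.40 for comr, and then the tile from 11320050 to 11510049, at 0.17 in can and 0.49 in comr. The last of these is the 1 tile with a lower difference than the cluster, at -0.32. Likeness here rests on 2 profiles only.

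The fine pattern inside the cluster was only loosely shared by the mutants. Across its 184 windows, r between the mutants was 0.21 (Spearman's rho = 0.18), and across its 19 bins it was 0.47 (rho = 0.47). Across the 2190 bins of the rest of 2L, r was higher, at 0.67 (rho = 0.63). Over the other tiles the correlation between the mutants across 1 kb windows had a median of 0.26, from 0.0046 to 0.53. Of the 118 tiles, 83 were higher than the cluster. Adjacent windows within the cluster correlated at 0.10 in can and 0.01 in comr (182 pairs), against medians of 0.11 in can and 0.17 in comr over the other tiles, and 114 of 118 tiles were higher in comr. Windows, bins and tiles of 1 profile share their libraries, so these correlations describe the profiles and carry no p-value.

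The longest unbroken stretches above 0 overlapped between the mutants. In can it was 13 windows, from 15415050 to 15428049, and in comr 30 windows, from 15417050 to 15447049, where it ended at the stretch with no values. The run of comr covers the highest bin of the cluster, from 15420050 to 15430049, and the run of can covers that bin except its last 2 kb. Bin and runs were picked from the same scores, so some of this overlap is built in. Over the other tiles the median of the longest such stretch was 8 windows in can and 8 in comr, with 15 tiles longer than the cluster in can and 6 in comr.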

How the data were processed

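H3K27me3 ChIP and input libraries from can and comr testes were read on a MiSeq after a low-input ChIP and library kit, per the labels' protocols. The authors deposited 1 score per position and genotype. Per the file headers, it is the H3K27me3 signal over the input signal in 1000 bp bins, with QN applied. Positions are on dm3, the build in the submitters' processing notes. No source used here says how reads were aligned and filtered or how replicates were merged.

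Rows 100 bp apart overlap, so only those with a start 500 bp past a whole kb were used, as 1 kb windows, each taken as centred on its row. Bins of 10 kb were averaged from these windows, as were tiles of 190 kb with at least 95 windows. The text names every domain in the cluster, the 3 highest and lowest bins, the 3 bins with the largest difference each way, the 5 highest windows of each profile and the 3 tiles most like the cluster. Members, rules and lists were chosen with earlier results of these data known. Functions were tested on simulated data. Alternatives changed the rows, borders, thresholds, summary and choice of the rest. Gene-level values, and protein and promoter sequences, were planned and are not analysed here. Values were computed with numpy 2.4.6, scipy 1.17.1 and pandas 2.3.3 under Python 3.11.15, and drawn with matplotlib 3.10.9.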

Additional observations from a re-analysis of the deposited data

How the results depend on the processing

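No paired analysis was possible because only 1 profile stands for both replicates of a genotype, so leaving one out could not be tried either. Of 50 recomputed values 0 changed sign, but the percentages and the kb covered among them cannot be negative. Only the excesses over the rest, the difference between the mutants and their correlation could have changed sign. Of the 38 for results other than domain coverage, 29 stayed within their error and 9 moved, and of the 12 for domain coverage, which has no error, 4 stayed within 1.5 times the reported length. The alternatives for windows above 0 were chosen after seeing the data. Widening the borders by 20 kb on each side gave an excess over the rest of 2L of 0.21 in can and 0.39 in comr, and medians gave 0.48 in comr. High windows made up 8.15% in can and 12.0% in comr at the top 5%, and 31.0% and 50.5% at the top 20%. Against the rest of the arm these shares stayed higher, with ratios between 1.74 and 2.33 for can and between 2.65 and 3.01 for comr over the thresholds and rows tried. Domain coverage was the least stable result, at 0 kb in can and 8 kb in comr at the top 5%, 84 and 143 kb at the top 20%, and 0 kb in both with no gaps joined. In can it was also 36 kb with the threshold of 2L alone and 0 kb with a minimum of 10 kb. The correlation of can and comr was 0.47 in 10 kb bins and 0.13 with rows starting at each kb. Unknown depth and the single profile per genotype limit each value.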
